A study of Saccharina japonica with 2 samples.

Results

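The 10 unigenes described here are the S. japonica sequences that the study assigned by homology to the pseudo-response regulators (PRRs) of the plant circadian clock, under the headings APR 5, APR 7, APR 9 (Arabidopsis pseudo-response regulator) and TOC1. Each distinct unigene under these headings was counted once, which gave 10 of the 44 unigenes on the study's plant circadian list, in a series where 70288 unigenes had at least 1 read. PRRs carry a receiver-like domain that lacks the residue phosphorylated in true response regulators, and a CCT motif that they share with CONSTANS. In Arabidopsis PRR9, PRR7 and PRR5 accumulate one after another from dawn on and repress CCA1 and LHY, and TOC1 (PRR1) follows in the evening and represses the same genes.

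S. japonica is a kelp, a brown alga whose sporophyte is the large leafy stage. After a dark culture of 4 h, the kelps of both groups spent 2 h in seawater, one group in continued darkness (dark) and the other under blue light from LEDs (BL). The labels call the material vegetative tissue of mature thalli, while the methods speak of juvenile sporophytes. Per treatment 10 individuals were pooled and the pool gave 1 library, so that no variation between kelps could be measured and every test below compares 1 library with the other. In such bulk RNA a smaller number of cells of a kind and less RNA per cell cannot be told apart. The dark library held 10905306 uniquely aligned reads and the BL library 11410538.

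All 10 unigenes stand under APR 7, and for 7 of them it is the only name. Unigene44659 also stands under APR 9, APR 5 and APR 3. Unigene61357 also stands under APR 9 and APR 5 and is the sole unigene under TOC1, where its match is described as APRR5 and not as TOC1. Unigene64736 also stands under CO, the zinc finger protein CONSTANS, which promotes flowering in Arabidopsis. The names are those of matches in land plants, and 1 kelp unigene carried up to 4 of them. Neither the unigene sequences nor a genome was used here, so whether several of these fragments belong to 1 transcript was not tested, and no genome position is given.

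The only sequences of the family at hand were the primers designed for quantitative PCR of an APR 5/APR 7/APR 9 unigene. They are shown because they mark the kelp fragment chosen for that assay, although the primer table does not say which unigene it is. Both have 18 bases, with 9 G or C bases in the forward and 7 in the reverse primer.
APR-F: tagggatgaccataccac
APR-R: aagcgaacaacaaagtga

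The family was shallowly sequenced. Of the 10 unigenes, 9 had uniquely aligned reads, with 62 dark and 229 BL reads in all. Unigene32628, which stands under APR 7 alone, was absent from both lists of reads, so its length and GC content are not given and no ratio could be computed. The other 9 had 16 to 67 reads over both libraries, with a median of 24. They were short, from 273 to 825 bp with a median of 335 bp, and 8 of the 9 were under 500 bp. In GC content they spanned 53.73% to 70.91%, and their median of 62.2% compared with 52.3% over all unigenes. None contained an unknown base. Levels are given as RPKM, the reads of a unigene divided by its length in kilobases and by the library's total in units of 1000000 reads. At these lengths 1 read in the dark library was worth 0.111 to 0.336 RPKM.

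All 9 unigenes had a higher RPKM in BL than in darkness with the libraries scaled by total reads, and 6 of them once the trend of the ratio with GC content was removed. Over the 9, the log2 ratio of BL over dark had a median of 1.86. Unigene44659, Unigene49146 and Unigene46535 were upregulated and none was downregulated. All 3 calls were lost with the GC trend removed, and also in edgeR's exact test with an assumed coefficient of variation of 0.4 between samples. Of all unigenes, 17.3% were called up and 9.89% down with the GC trend removed, and 1.19% up and 0.185% down in that edgeR test. A call required a P value up to 0.05, a false discovery rate (FDR) up to 0.001 over all 70288 unigenes and a log2 ratio of 1 or more in size. P came from the exact Audic-Claverie test, taken 2-sided, which gives the probability of a unigene's BL count from its dark count and the depths of the libraries. Among all unigenes 25.0% were called up and 11.6% down by this rule, 62.3% had a higher level in BL, and 45.7% had a log2 ratio of 1 or more, as did 7 of the 9. Of all calls 68.3% were upward, against 54.9% with trimmed-mean (TMM) scaling of the libraries and 48.7% with median-of-ratios scaling. At an unadjusted P of at most 0.05, 5 of the 9 unigenes were higher in BL and none was lower, against 44.4% and 25.2% of all unigenes. The ratio of the summed reads was 3.53-fold (exact Clopper-Pearson 95% interval 2.66 to 4.75), or 1.82 on the log2 scale. Of every 1000000 aligned reads, 5.69 fell on the family in darkness and 20.1 in BL.

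Unigene44659, the unigene under 4 APR names, had 5 reads in darkness and 44 in BL, or 1.04 and 8.72 RPKM. This was the highest BL level of the family. The log2 ratio was 3.07 (exact interval 1.74 to 4.76) with an FDR of 7.13e-08. It was the best supported upregulation together with that of Unigene49146, the longest member and one of the APR 7 homologues. Reads of that unigene numbered 9 in darkness and 58 in BL, or 1.0 and 6.16 RPKM, and the log2 ratio was 2.62 (exact interval 1.60 to 3.82, FDR 8.71e-09). Unigene46535, a further APR 7 homologue, had 1 dark read and 17 BL reads, 0.230 and 3.74 RPKM. Its log2 ratio of 4.02 was the largest of the family and its exact interval the widest, from 1.35 to 9.41, with an FDR of 0.000488. For all 3 upregulated unigenes the lower end of the interval was above the fold threshold. A unigene with 1 dark read needed 16 BL reads to pass, so the call rested on a margin of 1 read. It was lost with TMM scaling (FDR 0.00196) and with median-of-ratios scaling (FDR 0.00349).

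**Figure D1:**
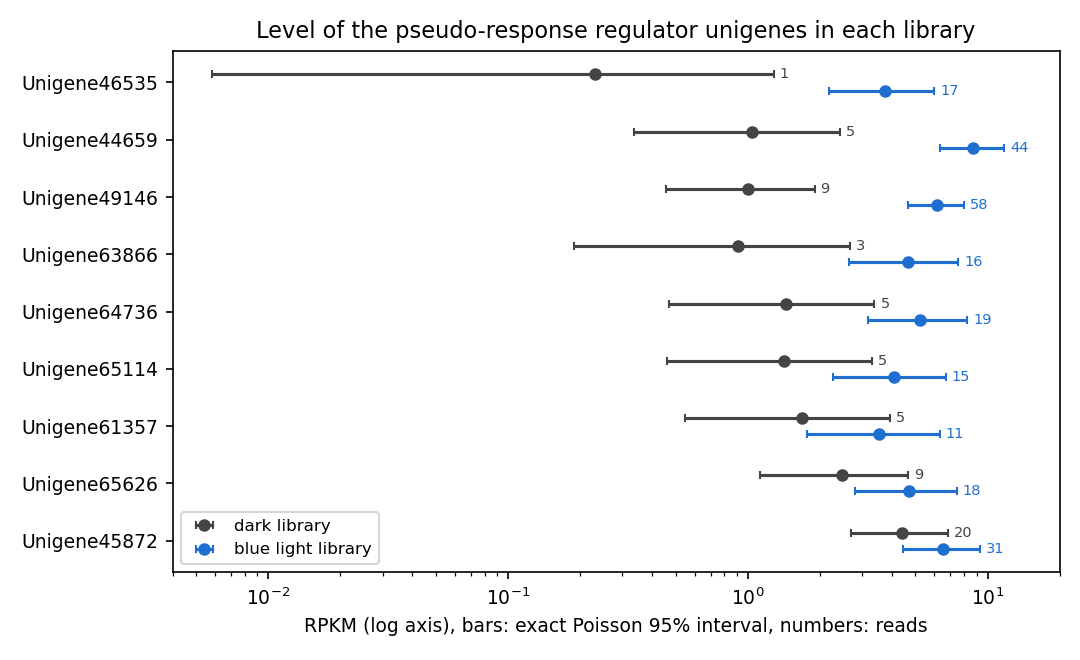
RPKM (log axis) of the 9 unigenes with reads in the dark (black) and BL (blue) library, ordered by their ratio, with exact Poisson 95% intervals and the number of reads beside each point. BL points run from 3.53 to 8.72 RPKM and dark points from 0.230 to 4.41, and the intervals of the libraries are apart for the upper 3 unigenes.

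The other 6 unigenes were not past the thresholds. Unigene63866 went from 3 to 16 reads, 0.911 to 4.64 RPKM, where 21 BL reads would have been needed, and its log2 ratio was 2.35 (exact interval 0.55 to 4.77, FDR 0.0106). Unigene64736, the unigene shared with CO, went from 5 to 19 reads, 1.45 to 5.25 RPKM, with a log2 ratio of 1.86 (exact interval 0.39 to 3.64, FDR 0.0158). For these 2 unigenes the interval lay above 0, and the FDR missed its threshold. Unigene65114 had 5 reads in darkness and 15 in BL, 1.42 and 4.06 RPKM, and the exact interval of its log2 ratio of 1.52 ran from -0.01 to 3.33. Unigene61357, filed under TOC1 and 3 APR names, also had 5 in darkness and 11 in BL, 1.68 and 3.53 RPKM, for a log2 ratio of 1.07 (exact interval -0.57 to 2.95). With 5 dark reads, 26 BL reads were needed to pass, so that neither was near a call. Unigene65626 had 9 reads in darkness and 18 in BL, 2.46 and 4.71 RPKM, for a log2 ratio of 0.93 (exact interval -0.29 to 2.27). Unigene45872 had 20 of the 62 dark reads of the family and the highest dark level, 4.41 RPKM (exact Poisson interval 2.69 to 6.81). This interval overlapped the dark intervals of Unigene65626, Unigene61357, Unigene64736 and Unigene65114. In BL Unigene45872 had 31 reads and 6.53 RPKM, the smallest ratio of the family at 0.57 on the log2 scale (exact interval -0.29 to 1.46). For these last 4 unigenes, with exact-test FDRs from 0.0752 to 0.297, a difference was not detectable at this depth.

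**Figure D2:**
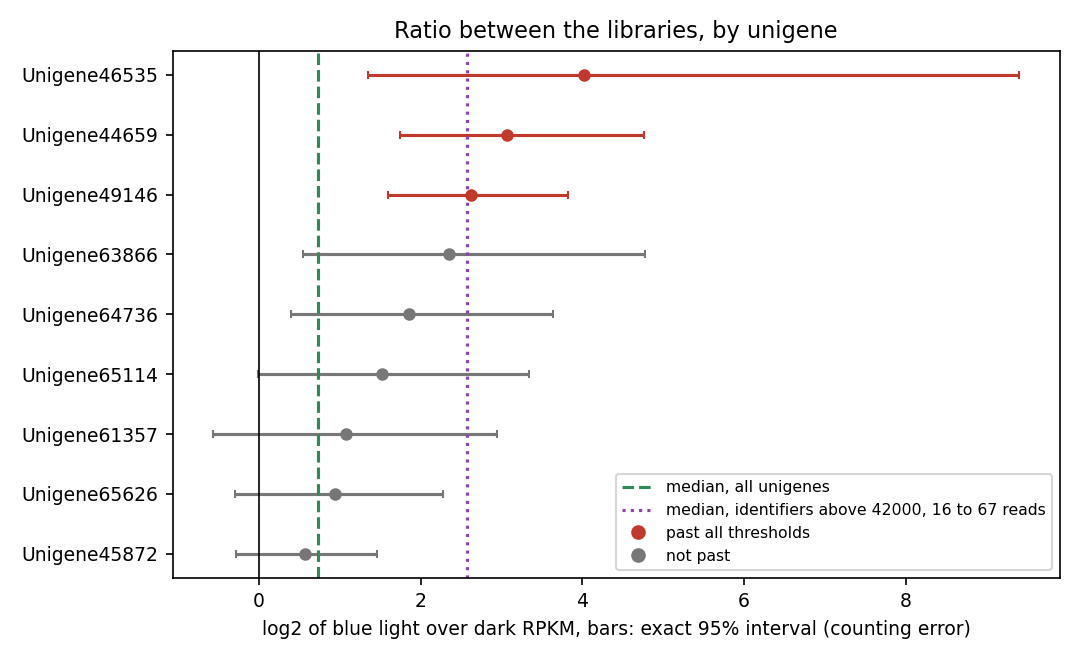
Log2 ratio of BL over dark RPKM for each unigene with its exact 95% interval, red where all thresholds were passed. The 3 upregulated unigenes lie at 2.62 to 4.02, 4 intervals include 0, and the lines mark the median of all unigenes (0.73) and of unigenes with identifiers above 42000 and 16 to 67 reads (2.58).

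Of the 36 pairs of members, the exact intervals of the ratios overlapped in 34. The 2 pairs without overlap were Unigene44659 and Unigene49146, each against Unigene45872. Overlap of intervals is no test of a difference, and whether the ratios of members differ was not tested. In BL the levels ran from 3.53 RPKM for Unigene61357 to 8.72 for Unigene44659. In darkness they ran from 0.230 RPKM for Unigene46535, which rests on 1 read, to 4.41 for Unigene45872. The dark levels between these extremes lay from 0.911 to 2.46 RPKM. The unigenes with the lowest and the highest dark level were those with the largest and the smallest ratio, which share the dark count. Leaving out 1 unigene at a time moved the summed log2 ratio between 1.62 (without Unigene49146) and 2.17 (without Unigene45872). It was 1.82 also without Unigene64736, the unigene shared with CO.

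The deposited lists also give the percentage of each unigene's length that reads of a library covered. In BL this coverage was 90.38% or more for all 9 unigenes. In darkness it ran from 22.61% to 93.99%, with a median of 70.4%. Of the 442 bp of Unigene44659, dark reads covered 202 bp and BL reads 441 bp. Of the 398 bp of Unigene46535, the single dark read covered 90 bp and the BL reads 370 bp. The dark reads of Unigene49146 fell on 537 of its 825 bp and the BL reads on 770. Equal counts were spread differently, since 5 dark reads covered 45.70% of Unigene44659 and 91.21% of the shorter Unigene61357. The exception to higher coverage in BL was Unigene45872, with 93.99% in darkness and 90.38% in BL despite more BL reads. Coverage was higher in BL for the other 8 members, and for 59.2% of all unigenes with reads in both libraries.

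**Figure D3:**
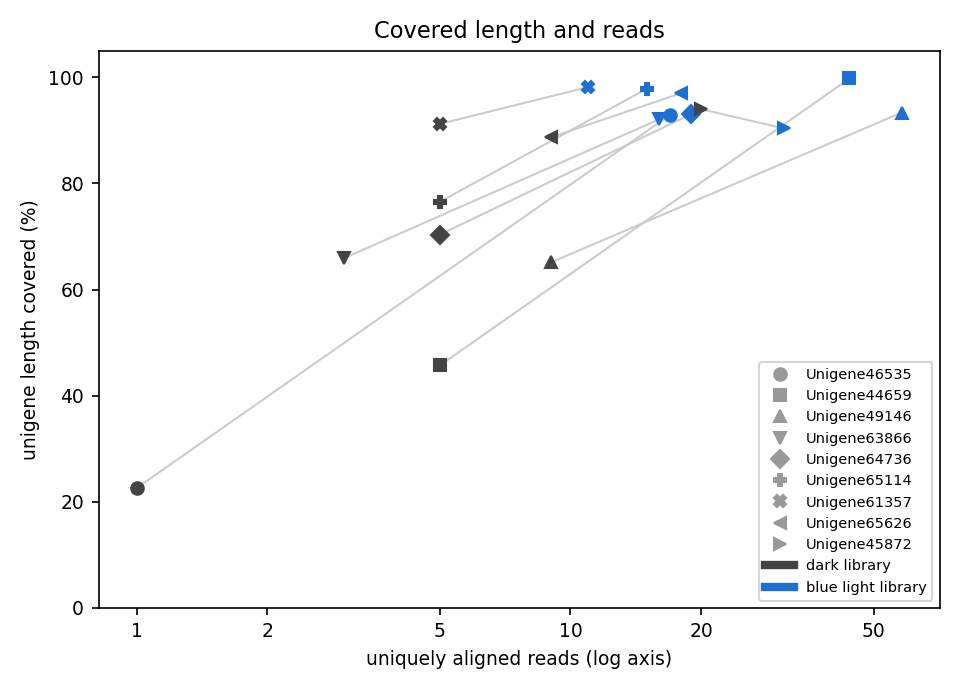
Percentage of the unigene covered against the number of uniquely aligned reads (log axis) in the dark (black) and BL (blue) library, with a line joining the values of each unigene. BL values gather between 90.38% and 99.77%, and dark values reach down to 22.61% for the unigene with 1 dark read.

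All 9 unigenes with reads had identifiers above 42000, where ratios differed from those of the rest of the transcriptome. Over identifiers up to 32000 the median log2 ratio was -0.07, over the following ones up to 42000 it was -1.55, and over the 28445 unigenes above 42000 it was 2.90. In this last range 29.2% of unigenes had no dark read and 0.0668% no BL read, while no identifier up to 32000 lacked reads of either library. The ranges were set after these values had been seen, and the sources used here do not say how identifiers were assigned. Of the unigenes above 42000, 94.6% had a higher level in BL, 85.3% a log2 ratio of 1 or more, and 39.4% were called up and 1.10% down. Among the 13610 of them with 16 to 67 reads, the read range of the members, 95.7% had a higher level in BL and 85.5% a log2 ratio of 1 or more. In this range 53.9% were called up and 0.206% down, and the median log2 ratio was 2.58. Against this range the members' 9 of 9 higher and 3 of 9 called up, with a median of 1.86, did not stand above the background. Of the 9 members, 3 had a ratio above the median of this range and 6 below it. Unigene32628, the member without a read, has an identifier between 32000 and 42000. Coverage had the same background, as it was higher in BL for 91.5% of unigenes above 42000 with reads in both libraries. How far the identifier range enters the members' ratios was not tested.

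**Figure D4:**
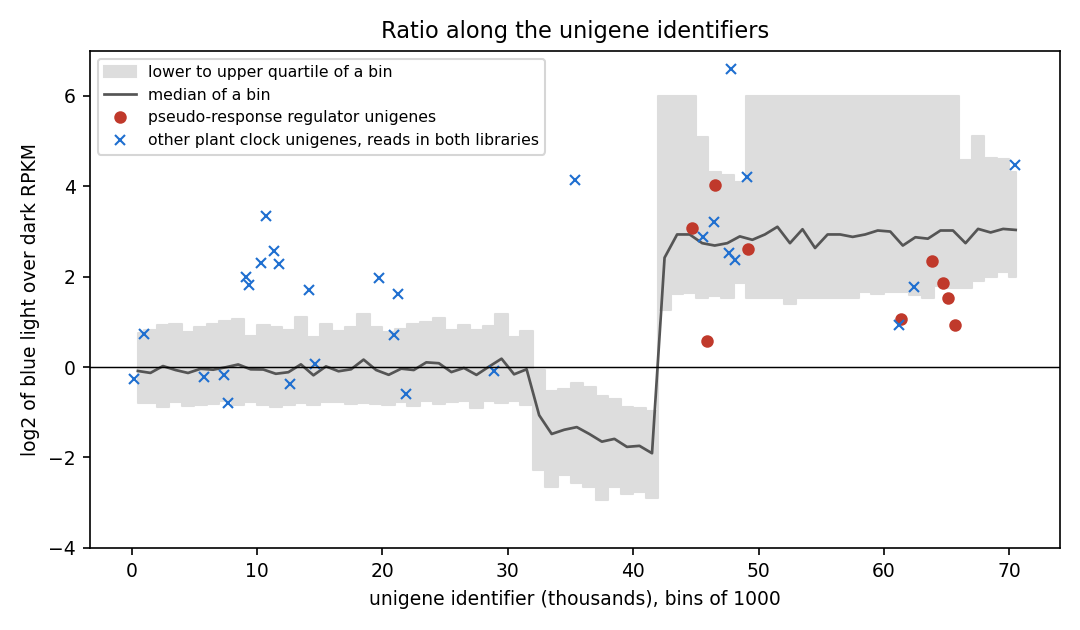
Log2 ratio of BL over dark RPKM along the unigene identifiers, in bins of 1000 (line, median, with the lower to upper quartile in grey, drawn up to 6 where the upper quartile has no dark read), with the PRR unigenes in red and the other plant clock unigenes with reads in both libraries as crosses. The median lies near 0 up to 32000, falls below it up to 42000 and is above 2 beyond, where all 9 red points lie.

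GC content moved with the ratio as well. Across unigenes with at least 50 reads and 1 in each library, the trend of the median log2 ratio with GC content ran from -0.08 to 1.92 over the GC contents of the 9 members. The largest value, that of the class with the highest GC content, applied to Unigene49146, Unigene64736 and Unigene46535, with 70.91%, 66.88% and 65.58% GC. Beyond the median GC content of that class the trend was held level, so it was not resolved among these 3 unigenes. The trend was taken over all identifiers together. Most members had fewer than 50 reads, so that for them it was carried over from deeper unigenes. With the trend removed, 6 of the 9 unigenes had a higher ratio in BL, the median was 0.71 and none was called up or down. The log2 ratios of the 3 upregulated unigenes were then 2.11 for Unigene46535, 1.20 for Unigene44659 and 0.71 for Unigene49146, with exact-test FDRs of 0.263, 0.132 and 0.286. Those of Unigene45872, Unigene61357 and Unigene64736 turned to -0.54, -0.82 and -0.055. How far GC content enters the members' ratios was not tested. Unigene63866 and Unigene65626, the members with the lowest GC content at 55.63% and 53.73%, moved little, to 2.04 and 1.02. TMM and median-of-ratios scaling shifted every log2 ratio by -0.29 and -0.42. All 9 unigenes stayed higher in BL under either, and Unigene44659 and Unigene49146 stayed upregulated.

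**Figure D5:**
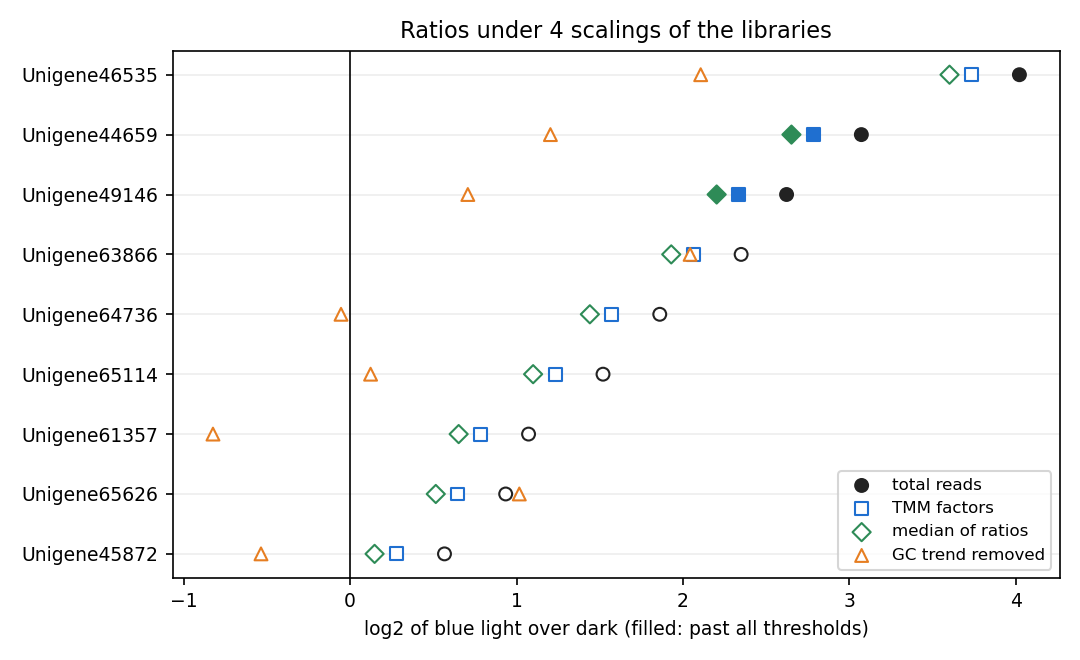
Log2 ratio of each unigene with the libraries scaled by total reads, TMM factors or median of ratios, or with the GC trend removed, filled where all thresholds were passed. The first 3 scalings keep all points above 0, and with the GC trend removed 3 unigenes lie below 0 and none is filled.

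The other 34 unigenes of the plant circadian list were compared as neighbours of the PRRs in the clock. Of these, 19 were upregulated and none was downregulated by the rule that calls 25.0% of all unigenes up. With the GC trend removed, 10 were upregulated and 6 downregulated, where 17.3% and 9.89% of all unigenes were. With the coefficient of variation set to 0.4, upregulation was called for 4, and for 1.19% of all unigenes. At an unadjusted P of at most 0.05, 25 were higher and 4 lower, where 44.4% and 25.2% of all unigenes were. These neighbours were deeper than the PRR unigenes, with a median of 147 reads against 24, and deeper than all unigenes, with a median of 48. This list comes from the study's own annotation of these libraries. ZTL, FKF1 and LKP2, the blue light-sensing F-box proteins that target TOC1 and PRR5 for degradation in Arabidopsis, were assigned 16 unigenes, of which 13 were upregulated. Among them Unigene11320 had the most reads and went from 20.5 to 122 RPKM, a log2 ratio of 2.58 (exact interval 2.42 to 2.73). It stayed upregulated with the GC trend removed, at a log2 ratio of 1.41.

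Of 3 unigenes for LHY and CCA1, the morning repressors of TOC1 in Arabidopsis, 2 were upregulated. The most-read of them, Unigene11759, went from 53 to 268 reads with a log2 ratio of 2.27 (exact interval 1.84 to 2.73). With the GC trend removed, Unigene11759 stayed upregulated at a log2 ratio of 1.20. CK2, the kinase that phosphorylates CCA1, had 1 of 6 alpha and 1 of 4 beta subunit unigenes upregulated. The most-read of each, Unigene12607 and Unigene229, had log2 ratios of -0.37 (exact interval -0.46 to -0.27) and -0.26 (exact interval -0.34 to -0.18), short of the fold threshold. With the GC trend removed, Unigene12607 was called down at a log2 ratio of -2.23, and the ratio of Unigene229 turned to 0.053. ELF3, a component of the evening complex, had 1 of 2 unigenes upregulated. Its most-read unigene, Unigene20953, had a log2 ratio of 0.72 (exact interval 0.25 to 1.20), which turned to -1.20, called down, with the GC trend removed. WNK1, a kinase reported to phosphorylate PRR3 in Arabidopsis, had 1 of 3, and this was Unigene45555, which went from 4 to 31 reads with a log2 ratio of 2.89 (exact interval 1.39 to 4.85). Its call was lost with the GC trend removed, where the log2 ratio was 2.07 (exact-test FDR 0.00709).

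Of these neighbours, all 14 with identifiers above 42000 had a higher ratio in BL and 9 were upregulated, while of the 20 below it 13 were higher, 10 upregulated and none downregulated. Among all unigenes above 42000, 94.6% were higher, 39.4% were called up and 1.10% down. Among all unigenes up to 42000, 40.3% were higher, 15.2% were called up and 18.7% down. Whether the PRR unigenes differ from these groups was not tested, and their values stand side by side only. Among the 21 neighbours that had 10 or more reads per library, the ratios nearest to that of the summed PRR reads were those of Unigene9399, Unigene14139 and Unigene19749. They differed from it by 0.01, 0.11 and 0.16 on the log2 scale, a likeness over 2 libraries alone. Unigene9399 stands under CK2 alpha with a log2 ratio of 1.81, and the other two under ZTL, FKF1 and LKP2 with 1.71 and 1.98. All 3 were upregulated, which their choice by ratio and read number made nearly certain, so these calls are no separate result. With the GC trend removed, the call of Unigene9399 alone was kept.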

How the data were processed

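Polyadenylated RNA of 1 dark and 1 BL pool was sequenced by the authors on an Illumina instrument, assembled with SOAPdenovo and merged into unigenes. The deposited counts are uniquely aligned reads per unigene without normalization, and the aligner and build are not given in the sources used here. The deposited percent values are, per the file headers, coverage of the unigene, GC content and unknown bases. Unigenes absent from a library's list were set to 0 reads.

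RPKM, ratios, Audic-Claverie P values with the observed count in both tails, Benjamini-Hochberg FDR and exact intervals at the 95% level were computed in Python 3.11.15 with SciPy 1.17.1. Intervals cover counting error only. No quasi-likelihood fit is possible with 1 library per treatment. edgeR 4.0.16 gave TMM factors and exact tests with an assumed coefficient of variation of 0.2 or 0.4. The GC trend joined the median log2 ratios of 20 classes of GC content and was held level beyond the outermost class medians. Further alternatives were the Benjamini-Yekutieli adjustment, Fisher's exact test, filters at 10 reads in all or 1 in each library, 500 bp, a log2 threshold of 2 or none, and a pseudocount of 1 RPKM. The calls were tested on simulated Poisson counts without variation between samples, with changes placed only in unigenes of at least 50 reads. Most members have fewer reads, so the test does not show how well changes at their depth are called.

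The members, lists and settings were chosen with earlier results of these data known. Named were all members, the most-read neighbour of each clock group and the 3 neighbours nearest in ratio. Tissue markers were not checked. The quantitative PCR values and the scores of the homology matches were not used.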

Additional observations from a re-analysis of the deposited data

How the results depend on the processing

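The 3 upregulated PRR unigenes became 2, without Unigene46535, with TMM factors, median-of-ratios size factors, Benjamini-Yekutieli adjustment or an assumed coefficient of variation of 0.2. They became 1 with a minimum of 500 bp, which only Unigene49146 reaches, and 0 with the GC trend removed or an assumed coefficient of variation of 0.4. Of all 70288 unigenes, 17561 were called up by the unaltered rule. Such calls numbered 14066 with TMM factors, 12631 with median-of-ratios factors and 14379 with Benjamini-Yekutieli adjustment. They numbered 10182 at an assumed coefficient of variation of 0.2, 839 at 0.4, 12172 with the GC trend removed and 7757 with the 500 bp minimum. Under the other 5 alternatives of the call, and with the pseudocount of 1 RPKM, the count of upregulated PRR unigenes was 3. No alternative gave a downregulated one. The 19 upregulated neighbours became 10 with the GC trend removed and 4 at an assumed coefficient of variation of 0.4. Downregulated neighbours numbered 1 with median-of-ratios factors, 6 with the GC trend removed and 3 without a fold threshold. Of all unigenes, 13286, 6954 and 11922 were called down under these settings, in that order. The log2 ratio of the summed PRR reads, 1.82, was 1.40 with median-of-ratios factors. Removing the GC trend turned the ratios of 3 members, Unigene45872 (-0.54), Unigene61357 (-0.82) and Unigene64736 (-0.055), and of 7 neighbours, among them the named Unigene20953 (-1.20) and Unigene229 (0.053). Causes were not tested. No paired analysis was possible because each treatment has 1 library, and for the same reason no replicate could be left out. At the members' 1 to 20 dark reads, 16 to 52 BL reads were needed for a call.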
